A study of Homo sapiens with 5 samples.

Results

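The linker histones of NCI-H209 cells were examined after co-culture with endothelial cells of the brain. The 6 genes analysed were H1FX, HIST1H1A, HIST1H1B, HIST1H1C, HIST1H1D and HIST1H1E, matched by symbol among the 64837 entries of the count files. The family was selected on its log2 fold changes in an earlier analysis of this co-culture comparison, so their own changes are given as a description, without p-values. The NCI-H209 line is an established line of human small cell lung cancer (SCLC). The control group held 3 RNA-Seq libraries of untreated NCI-H209 cells. The co-cultured group held 2 libraries of NCI-H209 cells kept for 24 h with human brain microvascular endothelial cells (HBMECs), which sat in a Transwell insert with 0.4-µm pores above the tumor cells. The cells of both kinds had first been incubated apart for 12 h, and the insert let them share medium without mixing. Whether the libraries of a group came from separate cultures was not stated, so errors and p-values measure only the spread between these libraries, which may be technical.

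Linker histones, or H1 histones, bind the nucleosome where DNA enters and leaves it and hold neighboring nucleosomes together. The genes of the HIST1H1 group are replication-dependent: they lack introns, are transcribed mainly while DNA is copied in S phase, and their mRNAs end in a stem-loop bound by the protein SLBP in place of a poly(A) tail. H1FX is replication-independent, with an mRNA that carries a poly(A) tail and is made throughout the cell cycle. The libraries were made from RNA depleted of ribosomal RNA and not by selection of poly(A) tails, so mRNAs of both kinds could be sequenced.

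In GENCODE release 29 on GRCh38 each of the 6 genes had 1 transcript of 1 exon. H1FX spanned chr3:129314771-129316277 on the minus strand. The HIST1H1 genes lay in the large histone cluster of chromosome 6. HIST1H1A (chr6:26017085-26017732), HIST1H1C (chr6:26055787-26056428), HIST1H1E (chr6:26156354-26157107) and HIST1H1D (chr6:26234268-26234933) were within 218 kb of each other. HIST1H1B (chr6:27866849-27867529) lay 1632 kb beyond HIST1H1D. HIST1H1E was on the plus strand and the other HIST1H1 genes were on the minus strand. The gene models of HIST1H1A, HIST1H1B, HIST1H1C and HIST1H1D held only coding sequence, whereas 865 of the 1507 bases of H1FX and 94 of the 754 bases of HIST1H1E were untranslated. Reads from the untranslated ends of those 4 HIST1H1 mRNAs were therefore counted only where they reached the coding sequence.

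The promoter sequences are shown because HIST1H1B, HIST1H1C, HIST1H1D and HIST1H1E share a short element at nearly the same position. The 150 bases before the gene start were taken from RefSeq on GRCh38.p14, which held all 6 genes. Capitals mark AAACACA (the H1 box), CCAAT and TATAAA on either strand.
HIST1H1C: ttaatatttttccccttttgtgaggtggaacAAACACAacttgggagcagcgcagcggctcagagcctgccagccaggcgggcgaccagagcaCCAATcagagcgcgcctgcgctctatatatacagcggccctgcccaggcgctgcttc
HIST1H1E: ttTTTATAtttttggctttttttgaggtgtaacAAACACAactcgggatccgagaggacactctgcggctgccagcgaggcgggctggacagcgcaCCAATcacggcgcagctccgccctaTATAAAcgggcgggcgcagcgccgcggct
HIST1H1D: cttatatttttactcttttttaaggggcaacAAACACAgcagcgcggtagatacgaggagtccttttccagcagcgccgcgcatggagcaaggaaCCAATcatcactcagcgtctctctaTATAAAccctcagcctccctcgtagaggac
HIST1H1B: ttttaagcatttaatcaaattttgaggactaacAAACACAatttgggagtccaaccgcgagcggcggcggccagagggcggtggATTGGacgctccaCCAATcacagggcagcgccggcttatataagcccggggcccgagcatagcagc
HIST1H1A: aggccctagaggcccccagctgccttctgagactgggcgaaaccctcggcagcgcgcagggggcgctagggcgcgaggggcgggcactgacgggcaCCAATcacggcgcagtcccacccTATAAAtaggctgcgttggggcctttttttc
H1FX: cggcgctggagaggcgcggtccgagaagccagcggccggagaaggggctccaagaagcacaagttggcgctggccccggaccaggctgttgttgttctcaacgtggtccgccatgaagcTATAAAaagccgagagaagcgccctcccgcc
These stretches were chr6:26056471-26056620 (minus strand, HIST1H1C), chr6:26156179-26156328 (plus strand, HIST1H1E), chr6:26234988-26235137 (minus strand, HIST1H1D), chr6:27867589-27867738 (minus strand, HIST1H1B), chr6:26017788-26017937 (minus strand, HIST1H1A) and chr3:129316287-129316436 (minus strand, H1FX). AAACACA began 117 to 119 bases before the start of HIST1H1B, HIST1H1C, HIST1H1D and HIST1H1E, on the strand of the gene. In HIST1H1A it was absent from that position and was found only on the opposite strand, 183 bases before the start. Further copies began 226 bases before the start of HIST1H1B and, on the opposite strand, 242 bases before that of HIST1H1C. CCAAT began 53 to 57 bases before the start of all 5 HIST1H1 genes. The H1FX window held TATAAA alone of the motifs searched, 31 bases before the start. In windows of 300 bases, of which 250 lay before and 50 after the start, AAACACA was found on either strand in 5.64% of 35116 promoters and in 4.76% of the 63 promoters of replication-dependent core histones. CCAAT was found in 34.6% of all promoters and in 85.7% of the core histone promoters, and TATAAA in 11.5% and 68.3%. The GC box, GGGCGG, was held by 45% of all promoters and by those of HIST1H1A, HIST1H1B and HIST1H1E. These matches are letters in a window, and binding was not measured.

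**Figure D1:**
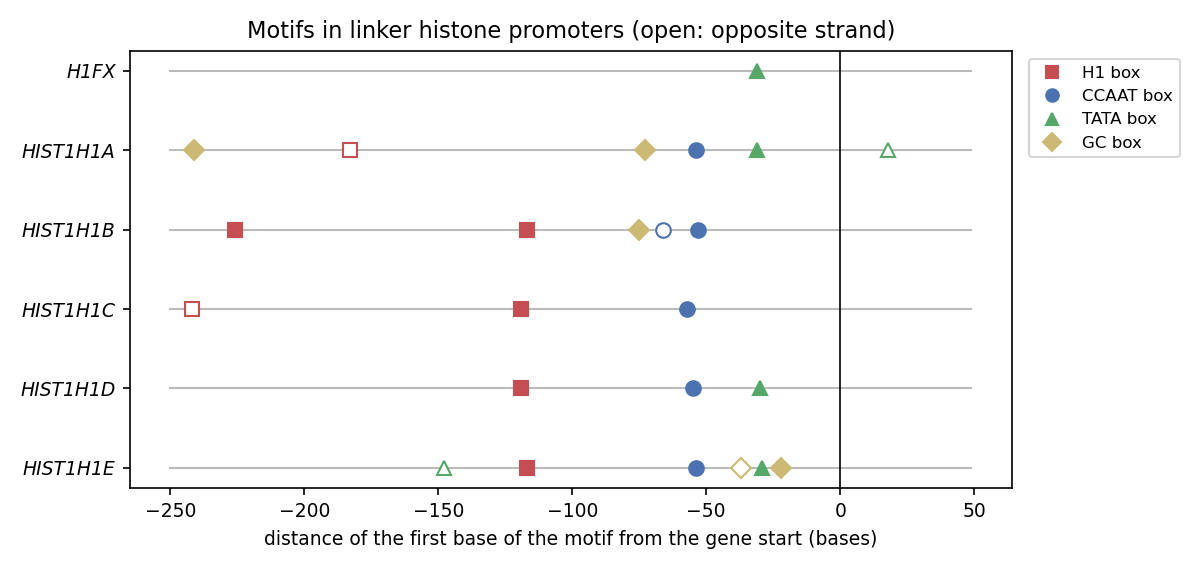
Positions of the searched motifs in the promoter windows of 6 linker histone genes, with the distance of the first base of each motif from the gene start in bases on the x axis and open symbols for the opposite strand. AAACACA lies 117 to 119 bases before the start in HIST1H1B, HIST1H1C, HIST1H1D and HIST1H1E and not in HIST1H1A or H1FX.

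At the other end of the gene, only the model of HIST1H1E reached into the 3′ stem-loop, and its last 18 bases are shown with the searched letters TTTTCAG of the stem and loop in capitals.
HIST1H1E: ccaaaggctcTTTTCAGa
TTTTCAG was found in the last 60 bases of 0.852% of 83129 protein-coding transcripts and of 10.7% of 75 transcripts of replication-dependent core histones. A model that ends with the coding sequence leaves the stem-loop out, and such core histone models were not counted. These shares are therefore not shares of mRNAs with a stem-loop. Between the coding sequences of the 4 abundant HIST1H1 genes, the identity over aligned bases ran from 77.3% (HIST1H1B and HIST1H1D) to 81% (HIST1H1C and HIST1H1E). HIST1H1A shared 70% to 73.4% with these genes, and H1FX shared 60.9% to 67.6% with the HIST1H1 genes. The longest run of bases shared by any pair was 37, between HIST1H1B and HIST1H1E. No stretch of 50 bases of a HIST1H1 transcript occurred in a transcript of another gene, on either strand. For H1FX 17.2% of such stretches did, all of them in H1FX-AS1, a noncoding gene on the opposite strand that overlaps H1FX over 886 bases. Counts by strand separate these 2 genes only as far as reads carry the right strand. The strand opposite to H1FX held 76 to 126 reads per library, 1.51% to 2.12% of the reads of the gene on both strands.

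The libraries held 15457071 to 19157348 counts on genes. The share of unmapped reads was 8.13% to 8.48% in control against 15.9% and 16.8% after co-culture. Reads on no annotated feature made up 47.3% to 51.2% against 40.1% and 40.8%. The part of either in the results was not tested. Control replicate 1 stood apart from the other control libraries on the second principal component. Of 14 neuroendocrine markers of SCLC 13 were tested. At an adjusted p under 0.05 in edgeR, 2 were higher after co-culture (SYP and NCAM1) and 4 lower (ISL1, STMN2, DDC and DLL3). At that threshold 18.4% of all genes tested were higher and 15.0% lower. INSM1 had 498 to 636 CPM (counts scaled to libraries of equal size) in control, whereas the mean of NEUROD1 was 1.58 CPM and CHGA had at most 1 count in any library. Of 15 endothelial markers 6 had at most 3 counts in every library, with MMRN1 and PLVAP at 0. The summed level of the endothelial list was 9.57 to 19.4 CPM in control and 13 and 13.1 CPM in co-cultured cells, and 1 of its 8 genes tested, ESAM, was higher in the latter.

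The linker histone genes did not differ in a common direction after co-culture: HIST1H1D and HIST1H1E were higher, by 1.95 and 1.58 times, HIST1H1C was slightly higher, HIST1H1B was lower, and H1FX stayed within the control range. H1FX is the replication-independent gene. Its 5816, 4715 and 6175 counts in control against 4967 and 4127 counts after co-culture corresponded to 309, 261 and 316 CPM and to 271 and 273 CPM. The co-cultured values fell inside the range of the control libraries. The log2 fold change was -0.12 (standard error 0.10), and it ran from -0.20 without control replicate 2 to -0.06 without control replicate 3.

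The antisense gene H1FX-AS1 was lower after co-culture. It had 240, 173 and 230 counts in control against 110 and 107 counts after co-culture, which were 12.8, 9.57 and 11.8 CPM against 6.01 and 7.07 CPM. The groups did not overlap, and H1FX-AS1 had a log2 fold change of -0.80 with a standard error of 0.17 (edgeR, Benjamini-Hochberg adjusted p = 0.00736). How many counts of H1FX-AS1 were H1FX reads on the wrong strand was not tested. Counted without regard to strand, where reads in the overlap are assigned to neither gene, the log2 fold change of H1FX was -0.08.

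**Figure D2:**
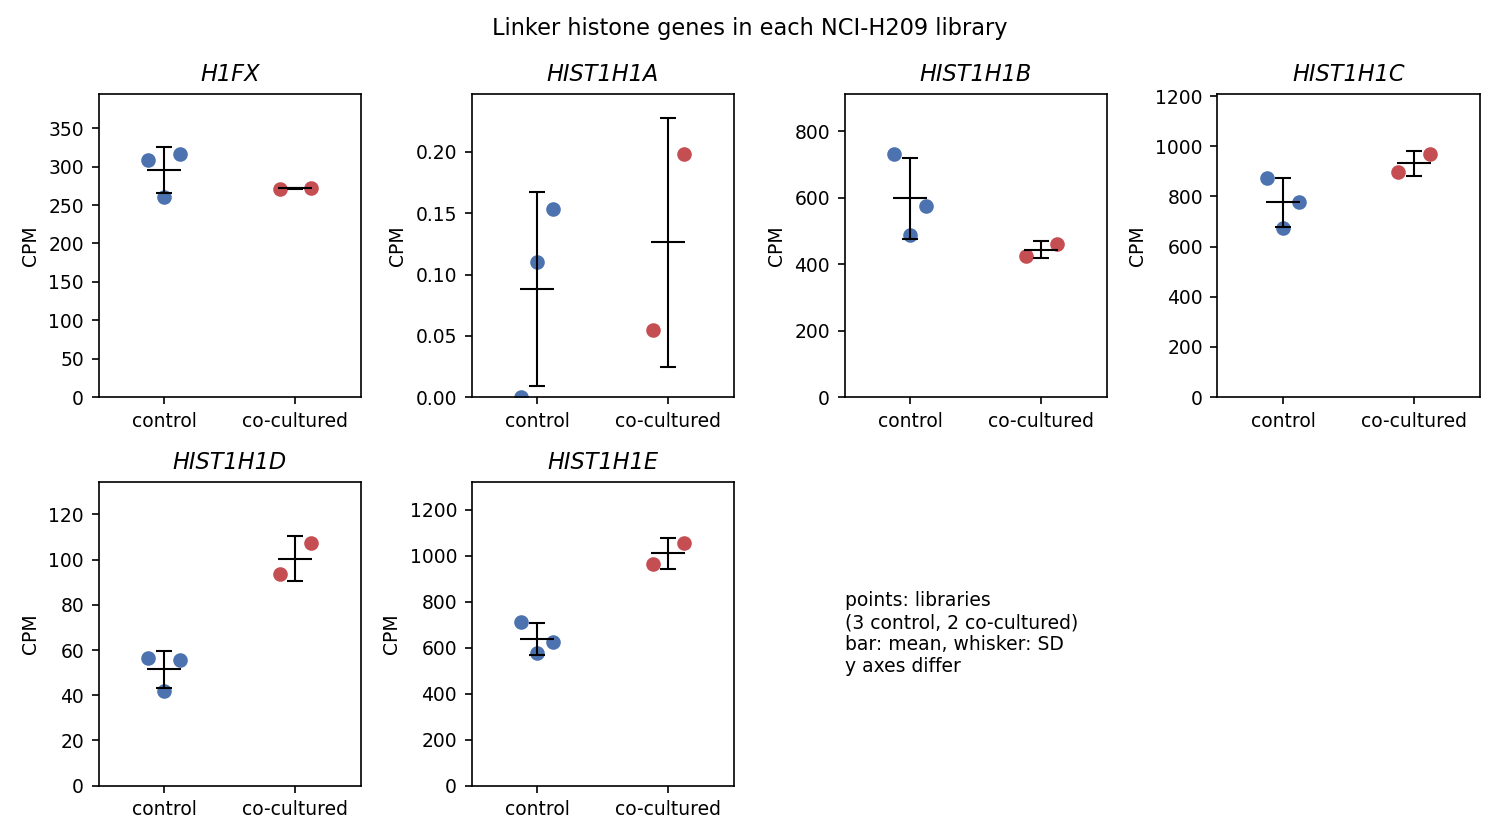
CPM of the 6 linker histone genes in each library, with points for libraries, a bar for the mean and a whisker for the SD of 3 control and 2 co-cultured libraries. Both co-cultured libraries lie above all control libraries for HIST1H1C, HIST1H1D and HIST1H1E and below them for HIST1H1B, and HIST1H1A is at the floor.

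The largest difference among the 6 genes was that of HIST1H1D, which had 1229 of the 20360 genes tested above it by log2 fold change. HIST1H1D, a minor gene of the group in these cells, was nearly doubled. It had 1064, 761 and 1086 counts in control against 1711 and 1627 counts after co-culture, or 56.6, 42.1 and 55.6 CPM against 93.5 and 107 CPM. Its log2 fold change was 0.97 (standard error 0.13). HIST1H1E, one of the abundant genes of the group, had 713, 578 and 626 CPM in control against 964 and 1057 CPM after co-culture. Both co-cultured values were above every control value, and the log2 fold change was 0.66 (standard error 0.10).

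HIST1H1C showed a smaller difference in the same direction. Its values were 873, 676 and 779 CPM in control against 897 and 968 CPM after co-culture, so that the groups were separated by less than the control libraries were from each other. The log2 fold change was 0.27 (standard error 0.11). HIST1H1B was lower instead. It had 731, 489 and 576 CPM in control against 425 and 462 CPM after co-culture. The log2 fold change was -0.43 (standard error 0.15). It rested partly on control replicate 1, which held the highest value, and was -0.26 without that library and -0.55 without control replicate 2.

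HIST1H1A could not be compared. It had 0, 2 and 3 counts in control against 1 and 3 counts after co-culture, at or under the floor of 3 counts in each, and was left out by the filter on low counts. A count of 3 corresponded to 0.157 to 0.194 CPM, which covers counting error only. HIST1H1A is also the gene of the group without AAACACA at the shared position of its promoter, and whether that bears on its level was not tested.

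Of the 6 genes, 5 passed the filter, and 2 of these (HIST1H1D and HIST1H1E) had an adjusted p under 0.05 in the fit across all genes, both higher. Of all 20360 genes tested, 33.4% were called in that fit, 18.4% higher and 15.0% lower. The criterion of the study, a fold change beyond 1 in size with a p under 0.05, does not name a scale and was read here as log2, without adjustment. None of the 5 genes met it in this reading, beside 10.5% of all genes (5.44% higher and 5.01% lower). HIST1H1D lay close to that limit and was past it, at 1.02 to 1.07, with reads counted without regard to strand, with the replicate block, and without control replicate 1, control replicate 3 or co-cultured replicate 1. The groups did not overlap for 4 of the 5 genes, 3 higher and 1 lower, beside 59.4% of all genes (29.4% higher and 30.0% lower). The comparison was used to choose the genes, so nothing follows from these counts. When control replicate 1 was left out, or when every gene with a single count was kept, 4 members were called, 3 higher and 1 lower. With upper-quartile normalization, DESeq2, at least 10 counts in every library, protein-coding genes only or without control replicate 2, 2 members were called higher and 1, HIST1H1B, lower.

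**Figure D3:**
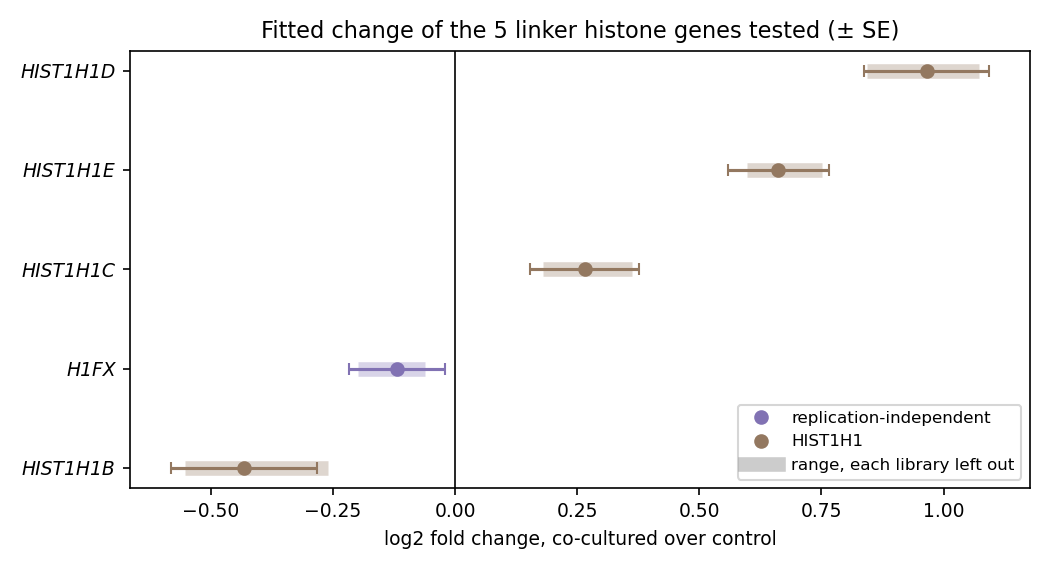
Fitted log2 difference, co-culture minus control, for the 5 linker histone genes tested, with the standard error as whiskers and the range with each library left out in turn as a pale band. H1FX stands at -0.12, and the HIST1H1 genes run from -0.43 for HIST1H1B to 0.97 for HIST1H1D.

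Set against each other, the mean log2 fold change of the 4 HIST1H1 genes tested exceeded that of H1FX by 0.48, although HIST1H1B lay below H1FX. The ratio of H1FX to all HIST1H1 genes, as CPM per kilobase of the gene model, was 0.0592, 0.0665 and 0.0706 for the controls but 0.0523 and 0.0482 after co-culture. Both co-cultured values were lower than every control value.

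Levels of different genes were compared per kilobase of the gene model. In control cells HIST1H1C stood first with 1209 ± 153 CPM per kilobase (SD, n = 3), followed by HIST1H1B with 879 ± 180 and HIST1H1E with 847 ± 91.0. The ranges of HIST1H1B and HIST1H1E over the control libraries overlapped, and the lowest value of HIST1H1C, 1053, was below the highest value of HIST1H1B, 1074. Among 13697 protein-coding genes tested, only 11, 14 and 16 genes had a higher mean level per kilobase in control than HIST1H1C, HIST1H1B and HIST1H1E. H1FX followed with 196 ± 20.1 and HIST1H1D with 77.2 ± 12.2, and the ranges of these genes did not overlap each other or those above them.

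In co-cultured cells HIST1H1C stood at 1453 ± 78.0 CPM per kilobase (SD, n = 2) and HIST1H1E at 1341 ± 87.3, with overlapping ranges. HIST1H1B came next with 652 ± 38.2. H1FX had 181 ± 0.534 and HIST1H1D 151 ± 14.8, and their ranges did not overlap. The ratio of HIST1H1E to HIST1H1B was 0.881, 1.07 and 0.982 for the controls but 2.05 and 2.07 after co-culture. The sum over the 6 genes was 3208 ± 448 CPM per kilobase (SD, n = 3) without and 3777 ± 219 (SD, n = 2) with co-culture. The groups overlapped, with 3669 in control replicate 1 against 3622 in co-cultured replicate 1. The sum over the HIST1H1 genes overlapped as well, with 3464 against 3442 in the same libraries.

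As a share of this sum, HIST1H1B made up 29.3%, 25.9% and 26.6% for the controls but 17.3% and 17.3% after co-culture. HIST1H1E went the other way, with 25.8%, 27.6% and 26.1% against 35.3% and 35.7%. The groups did not overlap in share for either gene, nor for HIST1H1C, H1FX or HIST1H1D, which is a description only. For HIST1H1C they were close, with at most 38.1% in control and at least 38.4% after co-culture. By CPM, the groups did not overlap for 59.4% of all genes tested. HIST1H1C had the largest share in each library, 37.7% ± 0.572 (SD, n = 3) without and 38.5% ± 0.167 (SD, n = 2) with co-culture. H1FX had 6.14% ± 0.507 and 4.79% ± 0.263, and HIST1H1D 2.41% ± 0.190 and 3.99% ± 0.161. Together the 6 genes took 0.214% to 0.263% of the counts on genes in control and 0.256% and 0.281% after co-culture, with overlapping ranges. In bulk RNA a change in the number of cells that express a gene and a change in the RNA per cell cannot be told apart.

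**Figure D4:**
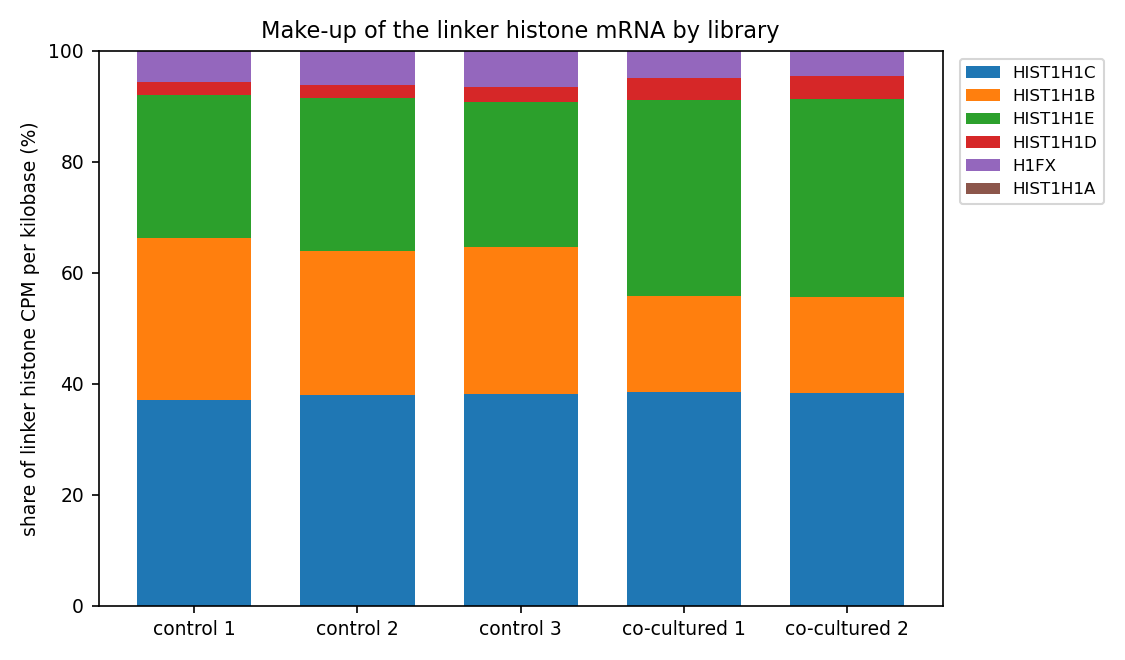
Share of each gene in the summed CPM per kilobase of the 6 linker histone genes, in percent, for each library. HIST1H1B takes 25.9% to 29.3% in control and 17.3% in both co-cultured libraries, and HIST1H1E 25.8% to 27.6% and 35.3% to 35.7%.

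The genes with the most similar pattern over the 5 libraries were taken from 9881 other protein-coding genes with a mean of at least 10 CPM, by the Euclidean distance between mean-centered log2 CPM. For H1FX they were CWC22, a splicing factor, ANAPC11, a subunit of the anaphase-promoting complex, and CDKN3, a phosphatase of the cell cycle, at distances of 0.0395 to 0.0673. For the mean of the 4 HIST1H1 genes they were BORCS7, PEX14 and SELENOF, at 0.0575 to 0.0728. That mean joins HIST1H1B, at a log2 fold change of -0.43, with genes that were higher, so these neighbors resemble the mean and not each gene. The values of H1FX overlapped between the groups and varied more among the control libraries than between the groups, so the likeness to its neighbors covers that spread as well.

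The 4 other linker histone genes examined were low or had no reads. HIST1H1T, a linker histone of the testis that lies in the same cluster, had 182, 198 and 201 counts in control against 177 and 173 counts after co-culture. Its level of 9.68 to 10.9 CPM in control and 9.67 and 11.4 CPM in co-cultured cells overlapped between groups, and the difference of 0.03 on the log2 scale was within its standard error of 0.14 (edgeR adjusted p = 0.885). H1FNT, H1FOO and HILS1, which are genes of the germ line, had 0 counts in every library, and a count of 0 allows up to 3 counts.

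The genes that make and process histone mRNA differed in both directions. Of 17 tested, 4 were higher and 2 lower, and the median log2 fold change was 0.04 where that of all genes tested was -0.03. The number called was close to the share over all genes tested, of which 18.4% were higher and 15.0% lower. SLBP, which binds the stem-loop, had 62.2, 61.5 and 62.1 CPM in control against 70.0 and 66.8 CPM after co-culture. Its log2 fold change of 0.14 had a standard error of 0.07 (edgeR adjusted p = 0.171). For NPAT, which activates replication-dependent histone genes, the value was -0.17 with a standard error of 0.08 (edgeR adjusted p = 0.129). LSM10, a subunit of the U7 particle that cuts the 3′ end of histone mRNA, rose, from a control mean of 16.4 ± 1.67 CPM (SD, n = 3) to a mean of 32.0 ± 1.19 CPM (SD, n = 2), with a fitted log2 value of 0.96 (adjusted p = 0.000375, edgeR). LSM1 and CPSF2 rose by 0.60 and 0.47 on the log2 scale. The balance of calls turned to 3 higher and 5 lower with upper-quartile normalization or with protein-coding genes only. Without control replicate 1 the number called in this list was 11, and without co-cultured replicate 1 or 2 it was 3 or 2.

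Of 6 chaperones of linker histones, 1 was called higher and 1 lower, beside 18.4% and 15.0% of all genes tested. NASP, which carries H1 in the nucleus, fell, from a control mean of 179 ± 11.8 CPM (SD, n = 3) to a mean of 132 ± 0.981 CPM (SD, n = 2), with a fitted log2 value of -0.45 (adjusted p = 0.00349, edgeR). SET rose by 0.43 on the log2 scale, and the other 4 genes, PTMA, NAP1L1, NAP1L4 and NPM1, were not called. The median of the 6 genes was -0.06. The number called was 4 without control replicate 1 and 0 without either co-cultured replicate. Of the HMG proteins, which compete with H1 for nucleosomes, HMGB2 was the only one called among 9 tested. It fell by 0.47 on the log2 scale (adjusted p = 0.00596, edgeR), and the median of the list was -0.11. Without control replicates 1, 2 and 3 in turn the number called was 5, 3 and 2, and without either co-cultured replicate it was 0.

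Of 12 enzymes and readers that modify or recognize linker histones, 4 were higher and 5 lower, beside 18.4% and 15.0% of all genes tested. The list had a median of -0.01 on the log2 scale. SIRT1, a deacetylase that acts on H1, rose, from a control mean of 82.0 ± 5.19 CPM (SD, n = 3) to a mean of 166 ± 0.604 CPM (SD, n = 2), with a fitted log2 value of 1.02 (adjusted p = 5.58e-05, edgeR). AURKB, a mitotic kinase, and L3MBTL1, a reader of methylated histones, fell by 0.70 and 0.64 on the log2 scale. PADI4 had 0 counts in each library. EHMT2 was also listed at 0, but it lies in the MHC region, and the files hold 64837 entries where the primary annotation holds 58780. Whether its reads were assigned elsewhere was not tested, so its 0 is not read as absence of the mRNA. Upper-quartile normalization, a fit to protein-coding genes only, and leaving out control replicate 2 or 3 each gave 1 higher and 5 lower. The number called was 3 without either co-cultured replicate.

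Because the HIST1H1 genes are transcribed in S phase, genes of DNA replication were set beside them. Of 36 tested, 9 were higher and 9 lower, beside 18.4% and 15.0% of all genes tested. The median log2 fold change of the list was -0.05. MCM5 and MCM7, subunits of the replicative helicase, fell by 0.61 and 0.54 on the log2 scale (adjusted p = 0.000495 and 0.000851, edgeR), while PCNA, the sliding clamp of DNA polymerase, rose by 0.53 (adjusted p = 0.00319, edgeR). The number called was 5 without co-cultured replicate 1 and 6 without co-cultured replicate 2.

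Core histone genes also differed in both directions. Of 46 replication-dependent core histone genes tested among 64, 13 were higher and 7 lower, beside 18.4% and 15.0% of all genes tested. The median was 0.04 on the log2 scale, and the number called fell from 20 to 12 and 10 without co-cultured replicates 1 and 2. HIST2H3D rose by 2.02 and HIST1H3I by 1.15 on the log2 scale, and HIST2H2BE fell by 1.19, though near-identical copies of HIST2H3D make its count uncertain. Of 9 replication-independent core histone variants, 3 were higher and 2 lower, and 2 were called without co-cultured replicate 2. CENPA, the histone of centromeres, fell, from a control mean of 36.7 ± 3.73 CPM (SD, n = 3) to a mean of 16.4 ± 0.391 CPM (SD, n = 2), with a fitted log2 value of -1.16 (adjusted p = 0.000177, edgeR). The genes H3F3A and H3F3B, which encode the same protein, moved apart, with log2 fold changes of -0.51 and 0.64 (adjusted p = 0.00429 and 0.00239, edgeR).

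**Figure D5:**
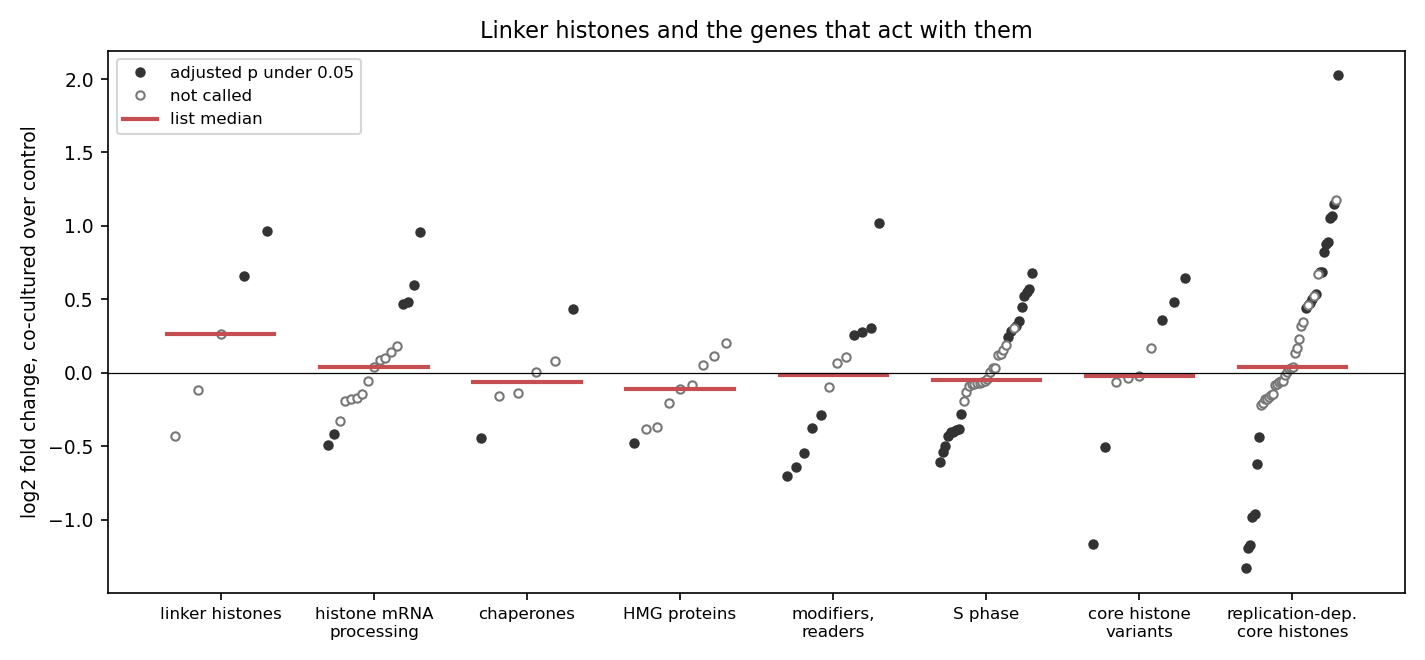
Fitted log2 difference, co-culture minus control, for each gene tested in the linker histone family and in 7 lists of related genes, with filled points for an adjusted p under 0.05 and a line at the median of each list. HIST2H3D at 2.02 has the largest value, and the medians of the 7 lists lie between -0.11 and 0.04.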

How the data were processed

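RNA-Seq was analysed in 3 control and 2 co-cultured NCI-H209 libraries. Per the labels, directional libraries were made from RNA depleted of ribosomal RNA, and the authors' processing notes name CASAVA 1.8, STAR 2.6.1b, DESeq2 and GRCh38. The deposited counts are unnormalized reads per gene, without regard to strand and for each strand. Counts of the transcript's strand were used (92.3% to 93.1% of stranded reads). The authors' comparison table was used only to match symbols. Its means, fold changes and p-values were not used.

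In R 4.3.3, edgeR 4.0.16 filtered the genes (filterByExpr), scaled the libraries (TMM) and tested 20360 genes by quasi-likelihood, with p-values adjusted after Benjamini and Hochberg. A gene was called at an adjusted p under 0.05. Standard errors are the log2 fold change over the square root of F. The exact permutation test of 3 against 2 libraries cannot give a p under 0.1. Replicate libraries were compared by a chi-square over genes, which came to 4.19 to 16.1 per degree of freedom, more than sampling noise gives. The steps were tested on simulated data. 1 gene of the family and 1 marker gene are not reported here. The members and lists were chosen with earlier results of these data known. Named list genes are at most 3 per list, those with the smallest p among genes called with groups that do not overlap. Beyond that rule, all neuroendocrine markers called, INSM1, NEUROD1, CHGA and all chaperones were named. SLBP, NPAT, the antisense gene of a member and list genes at 0, except core histones, were named in any case. Coding sequences were aligned globally with Biopython 1.88, and plots were drawn with matplotlib 3.10.9. Alternatives were DESeq2 1.42.0, other normalizations, filters, strands and gene sets, a replicate block and leaving out each library.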

Additional observations from a re-analysis of the deposited data

Results flagged for a closer look

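Reads on the strand opposite to HIST1H1E, which entered only the counts without regard to strand, did not overlap between the groups once scaled to library size. They had at least 10.8 CPM after co-culture and at most 9.25 CPM in control. The gene was named because its reads passed that rule. Counted on the transcript's strand, 29.4% of all genes tested also had both co-cultured values above every control value. The mean share of opposite-strand reads of HIST1H1E was 1.09% in control and 1.07% after co-culture. The unscaled counts overlapped. They numbered 174, 105 and 123 in control against 197 and 166 after co-culture, a mean of 7.12 CPM against 10.9 CPM, and made up 0.995% to 1.28% of the reads of the gene on both strands in every library. Groups of 3 and 2 libraries were too small for a check of outlying libraries.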

How the results depend on the processing

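The log2 fold changes of the 5 linker histone genes tested kept their direction under all 13 alternatives. With each library left out they ran from 0.18 to 0.36 for HIST1H1C, from 0.84 to 1.07 for HIST1H1D and from 0.60 to 0.75 for HIST1H1E. For HIST1H1B they ran from -0.55 to -0.26, around -0.43 with a standard error of 0.15 in the main fit. The difference between the HIST1H1 genes and H1FX ran from 0.41 to 0.55. Counts of calls depended more on the libraries. All genes called ranged from 2734 (without co-cultured replicate 1) to 9897 (without control replicate 1), members called from 2 to 4, genes of histone mRNA synthesis and processing from 2 to 11, chaperones from 0 to 4, HMG proteins from 0 to 5, modifiers and readers from 3 to 9, S phase genes from 5 to 24, core histone variants from 2 to 6 and replication-dependent core histones from 10 to 30. Keeping every gene with at least 1 count gave 4 members called. For the HMG proteins, 4 were called with upper-quartile normalization, 2 with DESeq2, 3 with at least 1 count in any library, 3 with at least 10 counts in every library and 4 with protein-coding genes only. The cause of these differences was not tested. Upper-quartile normalization moved the median of all genes from -0.03 to -0.11 and gave 3076 genes higher and 3929 lower, against 3750 and 3059. Whether same-numbered libraries of the 2 groups were paired was not stated. The deviations of same-numbered libraries had correlations of -0.11 and -0.07. With 2 co-cultured libraries, swapping their numbers only turns the sign of these values, so they cannot decide on a pairing. The replicate block gave 4824 genes called, 1.04 for HIST1H1D on the log2 scale, and 1 chaperone, 2 HMG proteins, 4 modifiers and readers and 11 S phase genes called. By the criterion of the study, read on the log2 scale, 1257 to 2990 genes passed over the alternatives. Depth limited HIST1H1A alone among the members, which stayed at or under 3 counts.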
